A study of Mus musculus with 10 samples.

Results

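The chimera octamer TGACGCAA joins the CRE half-site TGAC to GCAA, the C/EBP half-site of the opposite strand. The 8-mers described here are those that hold at least 1 of the 3 windows of 6 bases of this octamer on either strand, which gave 128 of the 32896 8-mers scored. They were defined by sequence, with earlier results of these data known, and 8-mers that are reverse complements of each other counted as 1. The windows are shown because every result below is grouped by them. Capitals mark the longest unbroken run of octamer bases, a lower-case flank may still hold a matching base, and members are printed on the strand that carries the window.
Chimera octamer: TGACGCAA
CRE-end window: TGACGC
Middle window: GACGCA
C/EBP-end window: ACGCAA
Each window occurred in 48 members. Besides the octamer itself, 7 members held 7 of its bases from the CRE end, 7 held 7 bases from the C/EBP end, 40 held the CRE-end window only, 33 the middle window only and 40 the C/EBP-end window only. Every member holds the central CG, and 21 of the 128 hold a second CG in a flank.

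The following members carry the differences described below. The first holds 7 bases from the CRE end, the next 3 hold the CRE-end window, and the last 4 hold the C/EBP-end window.
CRE-end member 1: aTGACGCA
CRE-end member 2: gaTGACGC
CRE-end member 3: cgTGACGC
CRE-end member 4: aTGACGCg
C/EBP-end member 1: ttACGCAA
C/EBP-end member 2: ACGCAAtc
C/EBP-end member 3: tACGCAAt
C/EBP-end member 4: ACGCAAta
The parent palindromes, and the octamers in which a TG replaces the CG on the printed strand or on the other, serve as comparators and hold no window of the chimera. In these lines capitals carry no marking.
CRE palindrome: TGACGTCA
C/EBP palindrome: TTGCGCAA
TG on the printed strand: TGATGCAA
TG on the other strand: TGACACAA

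Proteins of the bZIP family bind DNA as dimers, and the basic region of each monomer contacts a half-site in the major groove. CREB1 is a transcription factor of cAMP signalling that binds the palindromic CRE, and CEBPB is a C/EBP factor of differentiation and inflammation that binds a palindrome of its own. Sites that join a half-site of each family are known as C/EBP-ATF composite elements, where heterodimers such as those of ATF4 with C/EBP proteins bind. Methylation of the cytosine in CG places a methyl group in the major groove, where a thymine carries one.

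Binding was read on 44K Agilent protein binding microarrays, slides of double-stranded probes in a DeBruijn design that presents each short sequence in many contexts. The labels give the organism as mouse and the proteins as bZIP DNA-binding domains with an N-terminal GST tag, expressed from plasmids in vitro and detected with Cy5. The 5 groups of 2 arrays were CEBPB(V285A) on methylated DNA, CEBPB(V285A) on unmethylated DNA, CREB1(A297V) on methylated DNA, CREB1(A297V) on unmethylated DNA and wild-type CREB1 on unmethylated DNA. Methylated arrays were treated with the CG methyltransferase M.SssI. V285A replaces a valine by an alanine and A297V an alanine by a valine, both made by site-directed mutagenesis. Each group is thus a DNA-binding domain alone, with no second bZIP protein named in the labels, and wild-type CEBPB and methylated CREB1 arrays were not analysed here. The labels do not state whether replicate arrays held separate protein preparations. The spread between arrays of a group may therefore be technical alone. The p-values weigh a difference against that spread, pooled over the 5 groups and moved towards a trend over all sequences scored. In the main fit the trend counted as 14.1 degrees of freedom, against 5 for the sequence itself. A p-value thus rests more on the spread of other sequences than on that of its own.

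The score of an 8-mer is a Z-score within each array, the distance of its median log2 probe signal from the array's median 8-mer in units of the robust SD over all 8-mers. Each member was read by 32 to 39 probes, with a median of 34, and the small number of arrays limits the precision. Spots had median signals of 345 to 1857 per array, which is 1.79 to 5.10 times their background. Over the members, the replicate arrays of a group correlated at 0.868 (CREB1(A297V), unmethylated) to 0.985 (CREB1). Robust SDs ranged from 0.112 log2 units on an unmethylated CREB1(A297V) array to 0.265 on a methylated CEBPB(V285A) array, so that a given Z covers different signal ratios in different groups. The strongest 8-mer stood 2.79 and 2.68 log2 units above the array median on unmethylated CREB1(A297V) arrays, and 4.93 and 5.61 on methylated ones. There the CRE palindrome stood at 3.58-fold and 19.3-fold of the array median. A log2 gain for this protein on methylated DNA was thus not limited to the chimera. Array identifiers separated the unmethylated CEBPB(V285A) arrays from the unmethylated CREB1 and CREB1(A297V) arrays, and all methylated arrays from the rest. For CEBPB(V285A) against either other protein on unmethylated DNA and for methylation, identifier and group cannot be told apart. On both methylated CREB1(A297V) arrays 0% of the probes stood at the position they had on the other 8 arrays. Spot layout and group therefore cannot be told apart wherever methylated CREB1(A297V) enters a comparison.

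The chimera octamer was bound by all 3 proteins and most strongly by CEBPB(V285A). TGACGCAA had Z-scores of 16.2 and 15.8 for CEBPB(V285A) on methylated DNA, 17.3 and 16.8 for CEBPB(V285A) on unmethylated DNA, 8.86 and 9.29 for CREB1(A297V) on methylated DNA, 4.05 and 7.67 for CREB1(A297V) on unmethylated DNA, and 9.83 and 14.8 for CREB1. The CEBPB(V285A) arrays all lay above the arrays of the other proteins, while the ranges of methylated CREB1(A297V) and CREB1 did not overlap and those of CREB1(A297V) with and without methylation did not either. As a signal ratio to the array median the octamer reached 17.8-fold and 11.1-fold for CEBPB(V285A) on methylated and unmethylated DNA, 3.47-fold and 1.65-fold for CREB1(A297V) on methylated and unmethylated DNA, and 3.75-fold for CREB1. Its ranks among all 8-mers by mean Z were 7 and 12 for CEBPB(V285A) on methylated and unmethylated DNA, 82 and 75 for CREB1(A297V) on methylated and unmethylated DNA, and 38 for CREB1.

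Between groups, the octamer passed the limma test only for CEBPB(V285A) over CREB1(A297V) on unmethylated DNA, by 11.2 ± 2.33 Z (SE, adjusted p = 0.00172). With the authors' deposited scores that call was lost (adjusted p = 0.538), and with each array left out in turn it held, at 9.41 to 13.0 Z. CEBPB(V285A) exceeded CREB1 by 4.78 ± 2.33 Z without passing (adjusted p = 0.235). That difference passed on the log2 scale, at 1.56 log2 units (adjusted p = 1.49e-04), and turned to -1.03 Z after normexp background correction. It was 2.31 Z without CREB1 replicate 1 and 7.25 Z without CREB1 replicate 2. CREB1(A297V) lay below CREB1 by a difference of -6.44 ± 2.33 Z (adjusted p = 0.0596), and the log2 difference of -1.19 passed (adjusted p = 0.00233). In Z it passed without CREB1 replicate 1, at -8.91 (adjusted p = 0.0283), and without CREB1(A297V) replicate 2, at -8.25 (adjusted p = 0.0321), and it was -3.98 without CREB1 replicate 2. On methylated DNA CEBPB(V285A) exceeded CREB1(A297V) by 6.96 ± 2.33 Z (adjusted p = 0.0566), and by 2.35 log2 units, which passed (adjusted p = 3.79e-08). In Z this comparison passed in the 4 fits without an unmethylated CREB1 or CREB1(A297V) array, with adjusted p of 0.0276 to 0.0441. Methylation moved the octamer by -1.05 ± 2.33 Z for CEBPB(V285A) (adjusted p = 0.819), a direction that the log2 scale turned to 0.68 (adjusted p = 0.0465). For CREB1(A297V) methylation moved it by 3.21 ± 2.33 Z (adjusted p = 0.342) and by 1.07 log2 units, which passed (adjusted p = 0.00251). That direction turned after normexp correction, at -0.0134 Z, and after quantile normalization, at -0.0120 Z. The difference was 1.41 Z without unmethylated replicate 1 and 5.02 Z without unmethylated replicate 2. Behind every SE of 2.33 Z stood a residual SD of 1.95 Z over all groups, moved towards a trend of 2.45 Z. The replicate SDs of methylated CEBPB(V285A) and methylated CREB1(A297V) were 0.265 and 0.306 Z.

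Against its parents the octamer lay below the CRE palindrome on all 10 arrays. TGACGTCA averaged 18.9 ± 0.368 Z for CEBPB(V285A) on methylated DNA, 23.2 ± 0.111 for CEBPB(V285A) on unmethylated DNA, 21.6 ± 0.432 for CREB1(A297V) on methylated DNA, 14.5 ± 2.58 for CREB1(A297V) on unmethylated DNA, and 30.8 ± 2.42 for CREB1 (SD, n = 2 each). TTGCGCAA averaged 18.2 ± 0.493 and 16.2 ± 0.875 Z for CEBPB(V285A) on methylated and unmethylated DNA, 4.99 ± 0.538 and 2.11 ± 1.47 for CREB1(A297V) on methylated and unmethylated DNA, and 2.36 ± 0.374 for CREB1 (SD, n = 2 each). The CRE palindrome was thus bound by all 3 proteins, and the C/EBP palindrome mainly by CEBPB(V285A). The gap to the CRE palindrome was smallest for methylated CEBPB(V285A), at -0.739 and -0.736 log2 units, and widest for CREB1, at -3.27 and -2.58. Relative to the C/EBP palindrome, the octamer lay lower for methylated CEBPB(V285A), by differences of -0.598 and -0.542 log2 units on its 2 arrays. It lay higher on the other 8 arrays, by 0.0073 to 1.77 log2 units, the smallest gap being on an unmethylated CEBPB(V285A) array. The octamer's log2 score lay below the mean of both parents on every array, by differences of -0.977 to -0.233, which is a description of 3 sequences and was not tested.

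Replacing the CG by TG left part of the binding for CEBPB(V285A). For CREB1(A297V) on unmethylated DNA and for CREB1 both octamers with TG averaged below 3 Z. TGATGCAA had 13.5 and 13.0 Z for CEBPB(V285A) on methylated DNA, 12.1 and 11.2 for CEBPB(V285A) on unmethylated DNA, 2.67 and 3.58 for CREB1(A297V) on methylated DNA, 2.03 and 2.40 for CREB1(A297V) on unmethylated DNA, and 2.50 and 3.25 for CREB1. On every array it lay below the chimera octamer, and it ranked 13 and 64 of all 8-mers for CEBPB(V285A) on methylated and unmethylated DNA. TGACACAA, with the TG on the other strand, averaged 6.42 ± 0.232 and 4.92 ± 0.115 Z for CEBPB(V285A) on methylated and unmethylated DNA, 3.29 ± 0.262 and 1.58 ± 0.266 for CREB1(A297V) on methylated and unmethylated DNA, and 1.83 ± 0.260 for CREB1 (SD, n = 2 each). Neither octamer holds a CG that M.SssI could modify.

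Single probes show the spread behind the octamer's score. It was carried by 35 probes, 18 in the printed orientation and 17 in the other. The following probes have the highest and the lowest mean log2 signal over all arrays, after subtraction of the median of the spots around them. They are turned so that the octamer reads 5′ to 3′, with the octamer in capitals.
Highest probe: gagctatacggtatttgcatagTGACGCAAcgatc
Second highest probe: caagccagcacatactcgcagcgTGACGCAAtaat
Lowest probe: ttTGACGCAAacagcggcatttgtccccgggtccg
The highest probe had signals of 32062 and 24923 for CEBPB(V285A) on methylated DNA, 27674 and 31484 for CEBPB(V285A) on unmethylated DNA, 7319 and 18133 for CREB1(A297V) on methylated DNA, 8182 and 11056 for CREB1(A297V) on unmethylated DNA, and 24886 and 23374 for CREB1. The lowest probe had 287 and 254 for CEBPB(V285A) on methylated DNA, 725 and 576 for CEBPB(V285A) on unmethylated DNA, 547 and 562 for CREB1(A297V) on methylated DNA, 947 and 1936 for CREB1(A297V) on unmethylated DNA, and 955 and 1731 for CREB1. In it the octamer starts at base 3 of the 35, and in the highest probe it starts at base 6 of the spotted strand. Between 30 and 35 of the 35 octamer probes exceeded the array's median signal, the fewest on an unmethylated CREB1(A297V) array. An A or G before the octamer went with higher median signals than C or T. For CEBPB(V285A) on methylated DNA the median was 4.64 log2 units above the array median for 9 probes with A and 4.66 for 8 with G, against 3.35 for 9 with C and 3.29 for 8 with T. For CREB1 the medians were 2.43 with A and 2.46 with G, against 1.25 with C and 1.17 with T. Signals also differed with the base after the octamer. For CEBPB(V285A) on methylated DNA those medians were 5.38 with T and 4.98 with C, against 3.33 with A and 3.15 with G. For CREB1 they were 2.37 with A and 2.18 with T, against 1.72 with C and 1.22 with G.

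The 3 windows were not bound alike. The median of the 48 members with the CRE-end window was 4.71 Z for CEBPB(V285A) on methylated DNA, 8.52 for CEBPB(V285A) on unmethylated DNA, 2.17 for CREB1(A297V) on methylated DNA, 1.28 for CREB1(A297V) on unmethylated DNA, and 7.62 for CREB1. The members with the C/EBP-end window had medians of 4.52 and 3.65 Z for CEBPB(V285A) on methylated and unmethylated DNA, 1.39 and 0.895 for CREB1(A297V) on methylated and unmethylated DNA, and 2.20 for CREB1. For CEBPB(V285A) on methylated DNA the medians of both ends were nearly equal. The middle window gave medians of 1.30 and 2.09 Z for CEBPB(V285A) on methylated and unmethylated DNA, 0.415 and 0.372 for CREB1(A297V) on methylated and unmethylated DNA, and 2.14 for CREB1, which include the octamer and the members with 7 of its bases. Members that overlap share probes and are not independent.

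A mean Z of 3 or more was used to describe how many members were bound. This held for 66 of the 128 members for CEBPB(V285A) on methylated DNA, against 3.28% of all 8-mers, and for 80 on unmethylated DNA, against 3.50%. It held for 24 members for CREB1(A297V) on methylated DNA, against 2.90% of all 8-mers, for 7 on unmethylated DNA, against 1.68%, and for 60 for CREB1, against 2.69%. Of the 40 members with only the CRE-end window, 27 and 37 reached it for CEBPB(V285A) on methylated and unmethylated DNA, 16 for CREB1(A297V) on methylated DNA, none on unmethylated DNA, and 36 for CREB1. Of the 40 with only the C/EBP-end window, 26 and 27 reached it for CEBPB(V285A) on methylated and unmethylated DNA, 4 and 3 for CREB1(A297V) on methylated and unmethylated DNA, and 13 for CREB1. Of the 33 with only the middle window, 3 reached it for CEBPB(V285A) on unmethylated DNA and 2 for CREB1, and none in the other 3 groups. The lowest members, named after their values were seen, were of that class: gGACGCAg averaged -0.988 Z for CEBPB(V285A) on methylated DNA, and GACGCAgc averaged -1.73 Z for CREB1(A297V) on methylated DNA.

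Among the members with 7 octamer bases those from the CRE end had the higher median in every group. The 7 from the CRE end had medians of 6.77 and 9.23 Z for CEBPB(V285A) on methylated and unmethylated DNA, 2.90 and 2.10 for CREB1(A297V) on methylated and unmethylated DNA, and 9.17 for CREB1. The 7 from the C/EBP end had medians of 3.58 and 3.67 Z for CEBPB(V285A) on methylated and unmethylated DNA, 0.623 and 0.837 for CREB1(A297V) on methylated and unmethylated DNA, and 2.23 for CREB1. All 7 from the CRE end reached a mean Z of 3 for CEBPB(V285A), methylated or not, and for CREB1. Of the 7 from the C/EBP end, 5 did so for CEBPB(V285A) on methylated and 5 on unmethylated DNA, and 1 for CREB1. The strongest member with 7 bases from the C/EBP end, GACGCAAt, had 7.40 and 7.07 Z for CEBPB(V285A) on methylated DNA, 7.18 and 7.11 for CEBPB(V285A) on unmethylated DNA, 1.66 and 1.68 for CREB1(A297V) on methylated DNA, 1.40 and 2.25 for CREB1(A297V) on unmethylated DNA, and 3.68 and 4.11 for CREB1. Its CEBPB(V285A) values did not overlap with those of the other proteins.

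Of the single-base variants of the octamer, those changed at its ends are members. Positions are counted from 1 at the octamer's 5′ end, with the octamer's base first and the variant's base last. Variants at positions 7 and 8, in the C/EBP half-site, had medians of 5.77 and 8.78 Z for CEBPB(V285A) on methylated and unmethylated DNA, 2.57 and 1.56 for CREB1(A297V) on methylated and unmethylated DNA, and 8.42 for CREB1. Variants at positions 1 and 2, in the CRE half-site, had medians of 4.46 and 3.89 Z for CEBPB(V285A) on methylated and unmethylated DNA, 0.539 and 0.588 for CREB1(A297V) on methylated and unmethylated DNA, and 2.19 for CREB1. The T1G variant gGACGCAA was the weakest member variant for CEBPB(V285A), at 1.65 ± 0.0983 Z on methylated and 1.62 ± 0.188 Z on unmethylated DNA (SD, n = 2 each). The A8T variant TGACGCAt had 7.46 and 6.34 Z for CEBPB(V285A) on methylated DNA, 11.4 and 10.8 for CEBPB(V285A) on unmethylated DNA, 3.85 and 3.34 for CREB1(A297V) on methylated DNA, 2.21 and 3.82 for CREB1(A297V) on unmethylated DNA, and 10.4 and 12.9 for CREB1. For CREB1 it lay within the range of the octamer itself, whereas on every CEBPB(V285A) and CREB1(A297V) array it lay below the octamer. Changes at positions 3 to 6 leave no window of 6 bases intact, and these variants are not members. Of those named after their values were seen, C6T averaged 21.0 ± 1.29 and 24.3 ± 0.392 Z for CEBPB(V285A) on methylated and unmethylated DNA, 22.8 ± 2.96 and 18.5 ± 4.09 for CREB1(A297V) on methylated and unmethylated DNA, and 21.2 ± 2.64 for CREB1 (SD, n = 2 each). Its mean stood above the octamer's in every group. C4A averaged 0.391 ± 0.201 and 0.0934 ± 0.353 Z for CEBPB(V285A) on methylated and unmethylated DNA, -0.183 ± 0.0310 and -0.525 ± 0.139 for CREB1(A297V) on methylated and unmethylated DNA, and -0.218 ± 0.222 for CREB1 (SD, n = 2 each).

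The G2T variant ttACGCAA stood apart from the other changes at the CRE end. It turns the CRE half-site TGAC into TTAC, the half-site of the PAR family of bZIP factors. Its Z-scores were 18.2 and 17.3 for CEBPB(V285A) on methylated DNA, 18.6 and 16.2 for CEBPB(V285A) on unmethylated DNA, 14.4 and 16.5 for CREB1(A297V) on methylated DNA, 7.33 and 10.4 for CREB1(A297V) on unmethylated DNA, and 5.05 and 6.42 for CREB1. It had the highest mean of all 128 members in the 4 mutant groups, and the CREB1 arrays lay below all others. For CREB1(A297V) on methylated DNA its mean of 15.4 ± 1.54 Z stood above the octamer's 9.07 ± 0.306 (SD, n = 2 each). For CREB1 the order was the opposite, 5.74 ± 0.971 Z against 12.3 ± 3.49 for the octamer (SD, n = 2 each).

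Scores differed with the bases next to an intact window at either end. For the 8 members of each kind, an A or G directly 5′ of the CRE-end window went with medians of 11.0 and 11.7 Z for CEBPB(V285A) on unmethylated DNA and 10.8 and 11.0 for CREB1. With C or T in that place the medians were 5.25 and 4.09 Z for CEBPB(V285A) on unmethylated DNA and 4.90 and 3.45 for CREB1. An A or G directly 3′ of that window likewise gave 10.2 and 9.41 Z for CEBPB(V285A) on unmethylated DNA, against 4.91 with C and 6.06 with T. That A is the octamer's own next base, so these members are the octamer and those with 7 of its bases. A G in that place makes a second CG. At the C/EBP end, a T directly 3′ of the window gave a median of 7.81 Z for CEBPB(V285A) on methylated and 7.66 on unmethylated DNA, while A gave 1.19 and 1.80. The members ACGCAAtc, tACGCAAt and ACGCAAta all carry that T.

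The half-sites were also compared with the same flanks around the parents' windows. Changing the last base of the CRE-end window to T, which gives the CRE core TGACGT, gave a higher score in nearly every pair. The member was the lower of the pair in 47 of 48 pairs for CEBPB(V285A) on methylated DNA, 48 on unmethylated DNA, 47 for CREB1(A297V) on either DNA and 47 for CREB1. Against the C/EBP core GCGCAA with the same flanks, the members with the C/EBP-end window were the lower of the pair in 7 and 1 of 48 pairs for CEBPB(V285A) on methylated and unmethylated DNA, in 9 and 7 for CREB1(A297V) on methylated and unmethylated DNA, and in 1 for CREB1. The C/EBP-end medians of 4.52 and 3.65 Z for CEBPB(V285A) on methylated and unmethylated DNA stood against 1.62 and 1.34 for those partners. These pairs share flanks and probes and were not tested.

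CEBPB(V285A) was compared with CREB1 on unmethylated DNA, the comparison named in the series title. Members with the C/EBP-end window were bound more strongly by CEBPB(V285A), while those with the CRE-end window mostly did not pass the test. In limma, with Benjamini-Hochberg adjustment over all 8-mers and a threshold of 0.05, 28 of the 128 members were higher for CEBPB(V285A), against 3.67% of all 8-mers, and 2 were lower, against 2.53%. In either direction these are 30 members, against 6.2% of all 8-mers. Every member holds a CG, and among all 12547 8-mers with a CG 2.86% were higher and 2.68% lower. The higher ones comprised 26 of the 48 with the C/EBP-end window and 6 of the 48 with the middle window, and 1 of the 48 with the CRE-end window. The median difference was 1.71 Z for the C/EBP-end window, 0.18 for the middle and 0.61 for the CRE end, against 0.0056 over all 8-mers. Shares of all 8-mers, here and below, belong to the main processing with all arrays kept. None is given for other processing or with an array left out, so those counts describe the members only. On the log2 scale 79 members were called, all higher, 36 of them with the CRE-end window. After normexp correction 3 were higher and 17 lower, 13 of the lower ones with the CRE-end window. The C/EBP-end window then kept 3 higher and 1 lower, and its median was 0.61 Z, against -1.78 Z at the CRE end. The calls at both ends and the direction at the CRE end thus depend on the background correction. That direction also depended on other choices. The CRE-end median was -0.135 Z with quantile normalization, -0.595 Z without CREB1 replicate 1 and -0.151 Z without CEBPB(V285A) replicate 1.

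The largest called difference was that of ttACGCAA, whose values are given above, at 11.6 ± 2.60 Z (SE, adjusted p = 0.0128). It lost the call when any of the 4 arrays of these groups was left out, with the authors' scores and after normexp correction. ACGCAAtc had 10.2 and 8.15 Z for CEBPB(V285A), against 1.77 and 4.09 for CREB1. Its groups did not overlap, and the difference of 6.23 ± 0.769 Z (SE, adjusted p = 1.3e-04) kept the call with every array left out in turn. tACGCAAt had 12.3 and 12.1 Z for CEBPB(V285A), against 5.28 and 7.75 for CREB1. This member also separated the groups, by 5.70 ± 1.05 Z (SE, adjusted p = 0.00391), a call lost without CEBPB(V285A) replicate 1 and after normexp correction. The lower members were ACGCAAaa, at -1.27 ± 0.354 Z (SE, adjusted p = 0.0386), and cGACGCAg, at -1.03 ± 0.279 Z (SE, adjusted p = 0.0343), each lost in 7 of the 10 fits without an array. The count of called members depended on single arrays: 6 were called without CEBPB(V285A) replicate 1, 11 without CEBPB(V285A) replicate 2 and 14 without CREB1 replicate 1.

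CREB1(A297V) was compared with CREB1 to read the effect of the substitution in the CRE-binding domain. The chimera 8-mers fell broadly: 96 of the 128 members passed and all 96 were lower for CREB1(A297V), against 10.8% of all 8-mers lower and 8.13% higher. Among all 8-mers with a CG 21.4% were lower and 2.83% higher. They comprised 47 of the 48 with the CRE-end window, 32 of the 48 with the middle window and 27 of the 48 with the C/EBP-end window. Median differences were -6.20, -1.53 and -1.26 Z for the 3 windows, against 0.022 over all 8-mers. Of the 66 8-mers that hold a window of 6 bases of the CRE palindrome, 64 were lower, with a median of -7.03 Z. The fall was thus not particular to the chimera. aTGACGCg, the strongest member for CREB1, had 1.30 and 3.22 Z for CREB1(A297V), against 14.2 and 17.6 for CREB1. The groups lay far apart, and its difference was the largest. It amounted to -13.7 ± 1.42 Z (SE, adjusted p = 1.68e-05). gaTGACGC had 1.54 and 3.94 Z for CREB1(A297V), against 13.9 and 15.7 for CREB1. cgTGACGC had 0.770 and 3.81 Z for CREB1(A297V), against 11.2 and 17.1 for CREB1. Both pairs of groups were separate, with differences of -12.1 ± 1.61 and -11.9 ± 1.55 Z (SE, adjusted p = 6.19e-05 and 5.31e-05). All 3 calls held with every array left out in turn, and that of gaTGACGC was lost with the authors' scores (adjusted p = 0.0682). ttACGCAA did not follow, with a difference of 3.11 ± 2.60 Z (SE, adjusted p = 0.438). Without CREB1 replicate 2 the count of called members was 59.

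Both mutants were then compared on unmethylated DNA. CEBPB(V285A) bound nearly all chimera 8-mers more strongly than CREB1(A297V): 114 of the 128 members passed, all of them higher, against 14.1% of all 8-mers higher and 11.5% lower. Among all 8-mers with a CG 23.6% were higher and 5.95% lower. These were all 48 with the CRE-end window, 38 of the 48 with the middle window and 43 of the 48 with the C/EBP-end window. Median differences were 7.26, 1.80 and 3.21 Z for the 3 windows, against -0.0063 over all 8-mers. gaTGACGC had 17.5 and 13.1 Z for CEBPB(V285A), against 1.54 and 3.94 for CREB1(A297V), and a difference of 12.6 ± 1.61 Z (SE, adjusted p = 2.46e-05). cgTGACGC had 15.3 and 14.2 Z for CEBPB(V285A), against 0.770 and 3.81 for CREB1(A297V). aTGACGCA had 18.0 and 14.9 Z for CEBPB(V285A), against 3.62 and 5.79 for CREB1(A297V). In all 3 the groups lay apart, and their calls held with every array left out in turn. At the C/EBP end, ACGCAAtc differed by 8.74 ± 0.769 Z (SE, adjusted p = 1.2e-06). Because CEBPB(V285A) and CREB1(A297V) were both also set against the CREB1 arrays above, these 3 comparisons share samples.

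For CEBPB(V285A), methylated and unmethylated arrays differed in Z at the CRE end of the chimera, with few calls at the C/EBP end. Of the 128 members 40 were lower on methylated DNA, against 3.73% of all 8-mers, and 2 were higher, against 3.84%. In either direction 42 were called, against 7.57% of all 8-mers. Among all 8-mers with a CG 7.30% were lower and 1.90% higher. The lower ones comprised 34 of the 48 with the CRE-end window and 11 of the 48 with the middle window. The 2 higher ones held the C/EBP-end window. Median differences were -3.03 Z for the CRE-end window, -0.30 for the middle and 0.028 for the C/EBP end, against 0.0062 over all 8-mers. The 66 8-mers with a CRE palindrome window had a median of -3.66 Z, and 48.5% of them were lower. A fall at the CRE end was thus not particular to the chimera. Of the 21 members with a second CG, 10 were lower, and of the 107 with 1 CG, 30 were lower and 2 higher. These counts were not separated by window, and the windows differed in their share of lower members. On the log2 scale 31 members were higher and 42 lower. With the CRE-end window 33 were then lower, and with the C/EBP-end window 29 were higher. After normexp correction 4 members were higher and 8 lower, 5 of the lower ones with the CRE-end window. The split was 7 higher and 38 lower with the authors' scores and 6 higher and 33 lower with quantile normalization.

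aTGACGCA had 9.35 and 8.94 Z on methylated DNA, against 18.0 and 14.9 on unmethylated DNA. gaTGACGC had 8.69 and 8.16 Z on methylated DNA, against 17.5 and 13.1 on unmethylated DNA. cgTGACGC had 7.93 and 7.74 Z on methylated DNA, against 15.3 and 14.2 on unmethylated DNA. The arrays did not overlap in any of the 3, and the differences were -7.31 ± 1.74, -6.90 ± 1.61 and -6.91 ± 1.55 Z (SE, adjusted p = 0.0173, 0.0153 and 0.0129). The 2 higher members, ccACGCAA and cACGCAAc, differed by 1.47 ± 0.407 and 1.40 ± 0.378 Z (SE, adjusted p = 0.0343 and 0.0312). ccACGCAA had 4.54 and 5.21 Z on methylated DNA, against 3.50 and 3.31 on unmethylated DNA, which did not overlap. All 5 named calls were lost when replicate 1 of either group was left out. The calls of aTGACGCA, gaTGACGC and cgTGACGC were also lost after normexp correction, and those of the 2 higher members without spatial correction. The count of called members was 2 without either of these arrays, 8 without methylated replicate 2 and 23 without unmethylated replicate 2.

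For CREB1(A297V), few chimera 8-mers passed the test between methylated and unmethylated arrays. In limma 5 members were higher on methylated DNA, against 10.4% of all 8-mers, and 1 was lower, against 11.1%. Among all 8-mers with a CG 9.61% were higher and 11.8% lower. The highest called was tACGCAAa, with 4.24 and 2.97 Z on methylated DNA, against 0.0504 and 0.850 on unmethylated DNA. Its groups did not overlap, and the difference of 3.15 ± 0.619 Z (SE, adjusted p = 0.00185) held with every array left out in turn. TGACGCtt, with 2.97 and 3.13 Z on methylated DNA, against 0.508 and 1.45 on unmethylated DNA, differed by 2.07 ± 0.663 Z (SE, adjusted p = 0.0316). tACGCAAg, with 2.09 and 1.93 Z on methylated DNA, against -0.0121 and 0.904 on unmethylated DNA, differed by 1.56 ± 0.542 Z (SE, adjusted p = 0.0456). The lower member, ggGACGCA, holds the middle window and differed by -1.12 ± 0.243 Z (SE, adjusted p = 0.00374), with all 4 of its values below 0. The strongest member, ttACGCAA, had 14.4 and 16.5 Z on methylated DNA, against 7.33 and 10.4 on unmethylated DNA, and its difference of 6.60 ± 2.60 Z did not pass (SE, adjusted p = 0.0765). Apart from tACGCAAa, these calls were lost with the authors' scores and after normexp correction. On the log2 scale, where the methylated arrays also had the higher strongest 8-mers, 37 members were called, 35 of them higher. The count was 1 and 3 without methylated replicate 1 and 2, 2 without unmethylated replicate 1, 10 without unmethylated replicate 2, and 10 without either CREB1 array.

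On methylated DNA CEBPB(V285A) again exceeded CREB1(A297V), and more often at the C/EBP end than at the CRE end. Here 68 of the 128 members passed, all higher, against 6.75% of all 8-mers higher and 5.49% lower. Among all 8-mers with a CG 8.64% were higher and 3.53% lower. They comprised 36 of the 48 with the C/EBP-end window, 21 of the 48 with the middle window and 20 of the 48 with the CRE-end window, with median differences of 2.99, 1.16 and 2.35 Z, against 0.056 over all 8-mers. On the log2 scale 111 members were called, 46 of them with the CRE-end window and 43 with the C/EBP-end window, so the order of the ends depends on the scaling. ACGCAAtc had 9.22 and 9.20 Z for CEBPB(V285A), against 1.89 and 2.52 for CREB1(A297V). ACGCAAta had 10.3 and 9.19 Z for CEBPB(V285A), against 2.98 and 2.68 for CREB1(A297V). gTGACGCg had 11.0 and 9.94 Z for CEBPB(V285A), against 4.09 and 2.75 for CREB1(A297V). All 3 separated the groups, by 7.00 ± 0.769, 6.92 ± 0.774 and 7.04 ± 1.40 Z (SE, adjusted p = 8.8e-06, 1.07e-05 and 0.00263). The first 2 held with every array left out, and gTGACGCg was lost without CEBPB(V285A) replicate 1 or CREB1(A297V) replicate 2. The count of called members was 34, 39, 38 and 35 without CEBPB(V285A) replicates 1 and 2 and CREB1(A297V) replicates 1 and 2.

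The methylation differences of both mutants were tested against each other in the same fit. In the fit of all arrays 23 members had a lower methylation difference for CEBPB(V285A) than for CREB1(A297V), against 1.64% of all 8-mers, and 1 had a higher one, against 1.42%. Together these 24 members stand against 3.07% of all 8-mers, and among all 8-mers with a CG 3.15% were lower and 0.773% higher. Of the 48 members with the CRE-end window 21 were lower. All 48 had a negative difference of differences, with a median of -4.18 Z against 0.021 over all 8-mers. The 66 8-mers with a CRE palindrome window had a median of -5.25 Z, and 27.3% of them were lower. With the C/EBP-end window 1 of 48 was called, tACGCAAa, named after its value was seen, at -3.51 Z (adjusted p = 0.0367), and the median was -0.23 Z. After normexp correction 2 members were called, both lower and with the CRE-end window, whose median was then -2.38 Z. The count also depended on single arrays. Every call was lost without methylated CEBPB(V285A) replicate 1, unmethylated CEBPB(V285A) replicate 1 or either methylated CREB1(A297V) array. With methylated CEBPB(V285A) replicate 2 left out 1 was called, and 15 to 44 with any of the other 5 arrays left out.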

How the data were processed

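Per the file headers, the authors deposited for every array the median signal intensity and median background intensity of 40330 probes with a variable region of 35 bases. Scanner settings and spot filters are not given in the sources used here. The authors deposited a Z-score for each 8-mer and array, and how that score was made is not given in the sources used here; it served as an alternative.

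The log2 signal of each probe was lowered by the median of the 15 by 15 spots around it. Each 8-mer took the median over its probes, at least 8 being required, and was centred on the array's median and divided by 1.4826 times the median absolute deviation. limma 3.58.1 in R 4.3.3 fitted all 10 arrays with a coefficient for each group (5 residual degrees of freedom), followed by eBayes with a variance trend. In each of 7 comparisons two-sided p-values were adjusted over all 32896 8-mers (Benjamini-Hochberg). Both scripts were tested on simulated data.

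Named were the octamer and its parents and TG forms, members with 7 octamer bases or a single change, the 3 strongest per window and group, the 3 most extreme called differences per comparison in each direction, and members differing in a flanking base. The members and lists were chosen with earlier results of these data known. Alternatives changed the scale, source, background correction (normexp, offset 50), spatial correction, quantile normalization, probes, variance trend, replicate block and arrays.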

Additional observations from a re-analysis of the deposited data

Results flagged for a closer look

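The methylation difference was compared between CEBPB(V285A) and CREB1(A297V) by an interaction term in limma. At an adjusted p below 0.05, 24 of the 128 members passed, against 3.07% of all 8-mers. The largest were gaTGACGC, at -9.68 ± 2.27 Z (SE, adjusted p = 0.0288), aTGACGCg, at -7.80 ± 2.01 Z (SE, adjusted p = 0.0416), and agTGACGC, at -6.98 ± 1.55 Z (SE, adjusted p = 0.0225). Each lay lower on methylated than on unmethylated arrays for CEBPB(V285A) and higher on methylated arrays by their means for CREB1(A297V). gaTGACGC had 8.69 and 8.16 Z on methylated against 17.5 and 13.1 on unmethylated DNA for CEBPB(V285A), and 6.69 and 4.36 Z on methylated against 1.54 and 3.94 on unmethylated DNA for CREB1(A297V). In the opposite direction stood ggGACGCA, at 1.68 ± 0.344 Z (SE, adjusted p = 0.0191), whose values lay between -1.48 and 0.401 Z on the arrays of both mutants. Each of these 4 calls was lost in 5 to 7 of the 10 fits that left out an array, and all 4 after normexp correction. Groups of 2 arrays allow no test for single arrays that stand apart.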

How the results depend on the processing

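Of the counts of called members, those of CREB1(A297V) against CREB1 (74 to 101 over 8 alternatives) and of CEBPB(V285A) against CREB1(A297V) on unmethylated DNA (105 to 117) stayed within 1.5 times of the reported value under all 8 alternatives that kept every array. On the log2 scale, without division by the robust SD, the counts were 79 for CEBPB(V285A) against CREB1, 73 for methylation with CEBPB(V285A) (31 higher, 42 lower), 37 for methylation with CREB1(A297V), 111 for CEBPB(V285A) against CREB1(A297V) on methylated DNA and 44 for the interaction. Normexp correction gave 12 for methylation with CEBPB(V285A) (4 higher, 8 lower), 3 for methylation with CREB1(A297V) and 2 for the interaction. The authors' scores gave 1 for methylation with CREB1(A297V). Shares of all 8-mers called under these alternatives are not given here, and the cause of these shifts was not tested.

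With each array left out in turn, the counts ranged from 6 to 35 for CEBPB(V285A) against CREB1, 59 to 106 for CREB1(A297V) against CREB1, 94 to 115 and 34 to 82 for CEBPB(V285A) against CREB1(A297V) on unmethylated and methylated DNA, 2 to 52 and 1 to 10 for methylation with CEBPB(V285A) and CREB1(A297V), and 0 to 44 for the interaction.

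At the octamer TGACGCAA, normexp correction turned the difference to CREB1 to -1.03 Z for CEBPB(V285A). Methylation with CEBPB(V285A) turned to 0.68 log2 units, 6.38 with the authors' scores, 2.36 Z with normexp and 1.99 Z with quantile normalization. Methylation with CREB1(A297V) turned to -0.0134 Z with normexp and -0.0120 Z with quantile normalization, and the interaction to 2.37 and 2.00 Z. cGACGCAg turned to 0.114 with the authors' scores for CEBPB(V285A) against CREB1. The octamer's mean rank for methylated CREB1(A297V), 88.5, became 74 without spatial correction and 67 without probes that hold another strong site.

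Deviations of same-numbered arrays correlated at -0.213 to 0.333 between groups. The highest value, 0.333, was that of unmethylated CREB1(A297V) with CREB1. The main fit treated these arrays as unpaired, and whether replicate numbers pair them is not given in the labels. With the replicate block 30 members were called for CEBPB(V285A) with CREB1, 99 for CREB1(A297V) with CREB1, 113 and 68 between both mutants on unmethylated and methylated DNA, 43 and 7 for methylation with CEBPB(V285A) and CREB1(A297V), and 29 for the interaction, and the block changed no call at the octamer.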
